A study of Schmidtea mediterranea with 152 samples.

Results

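The 150 transcripts described here were the ones whose share of expressing cells dropped most between non-pole muscle cells of the uninjured tail tip and non-pole muscle cells of the posterior blastema. They were taken from 26560 transcripts of the planarian *Schmidtea mediterranea*. The members were chosen by the measured share of cells at 20 or more CPM, where CPM are the reads of a transcript scaled to the reads of that cell on all transcripts used. The 150 with the largest share in uninjured minus share in blastema cells are called the members, and ties went to the higher uninjured mean. The share difference and every other non-pole value of the members is therefore a description of what was chosen and was given no test.

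Single cells of the asexual strain (CIW4) were isolated from midline tail tips of uninjured animals and from the midline part of posterior blastemas at 72 hours after transverse amputation of the tail. Non-dividing cells were sorted 1 per well, amplified by the Smart-seq2 method without molecular identifiers, and classed by qRT-PCR for *wnt1* and *collagen*. Pole cells were *wnt1*+ and *collagen*+, and non-pole muscle cells were *wnt1*- and *collagen*+. After near-identical libraries were summed and cells under 50000 reads were left out, 53 uninjured non-pole, 69 blastema non-pole, 7 uninjured pole and 5 blastema pole cells remained. Neither animal nor plate is named for any cell, so each of the 4 groups counts as 1 sample. Cells of 1 group are not replicates of a condition, and no p-value is given. Intervals below are exact 95% intervals for counting error only, and they do not cover differences between cells or animals.

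Planarians regrow lost tissue from dividing stem cells, and the new unpigmented outgrowth at a wound is the blastema. Planarian muscle holds the contractile proteins of muscle elsewhere, secretes much of the body's extracellular matrix, including the fibrillar collagens, and expresses genes that carry positional information. At the midline of the tail tip a few muscle cells, the posterior pole, express the Wnt ligand *wnt1*, which in planarians promotes tail identity. The labels were checked against *wnt1* (dd_28398), which reached 20 CPM in 7 of 7 uninjured and 5 of 5 blastema pole cells. Among non-pole cells it did so in 3 of 53 uninjured and 0 of 69 blastema cells. The highest of these 3 was at 224 CPM, above the lowest uninjured pole cell at 23.6 CPM, so that 3 cells went against the *wnt1*- label. The value of 23.6 CPM came from pole replicate 1 and rested on few reads, since 6 reads of dd_15885 made 70.7 CPM in that cell. Collagen, scored as the summed CPM of a fixed list of collagen transcripts, was under 5000 CPM in 12 of 53 uninjured non-pole cells, 6 of 69 blastema non-pole cells and 1 of 7 uninjured pole cells. Those cells carry a muscle label at a low level of collagen in the reads, and they are called collagen-poor.

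A set of 19 libraries stood apart by depth and by the reads on 1 row together, and it bears on most values below. Each had at least 800000 reads on transcripts and under 10% of all its counted reads on the row dd_7, one of 6 rows outside the transcripts used. Their dd_7 share was 0.929% to 6.91%, against at least 11.96% in the 10 other cells with as many reads. They comprised 16 uninjured non-pole cells (replicates 14 to 16 and 38 to 50) and 3 of the 7 uninjured pole cells (replicates 5, 6 and 7). No blastema cell was among them. Blastema non-pole replicates 43 and 44, with fewer reads, were also under that limit, at 5.23% and 9.69%, and they held 6% and 6.67% of the members at 20 or more CPM. In the titles their library numbers formed 2 unbroken runs, of 6 and 13 libraries. The labels give no reason for this, so these libraries and the uninjured condition cannot be told apart for the values that rest on them, and each such value is given with and without them.

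Across all uninjured non-pole cells the members were broadly but unevenly read. The share of cells at 20 or more CPM had a median over members of 43.4% in uninjured and 17.4% in blastema non-pole cells. The difference ran from 37.1 percentage points for dd_15885 to 21.5 for dd_17723, the last member taken, while its median over all 26560 transcripts was 0. The transcripts just outside were dd_15701 and dd_9881, tied at 21.5 points with lower means, and then dd_17207 (row 1 of that contig number) at 21.4 points. Members took 2.81% of all transcript reads in uninjured non-pole cells and 0.365% in blastema non-pole cells. Their level, as CPM of the summed reads of a group, was at least 2-fold lower in the blastema for 140 of 150, where 29% of the 19510 transcripts with 20 or more summed reads were. None was at least 2-fold higher, where 19.9% of those transcripts were. This count follows from the way members were chosen. The median log2 fold of members was -2.43, on log2(CPM + 1), and that of the 19510 transcripts was -0.22.

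The number of members read in a cell separated the libraries that stand apart from the rest of their own group. The 16 uninjured non-pole cells among them held 10% to 83.3% of the 150 members at 20 or more CPM, with a median of 72%. Replicates 14, 40 and 42 were lowest, with 52%, 36.7% and 10% of members, and the other 13 cells held 69.3% to 83.3%. The remaining 37 uninjured non-pole cells held 12.7% to 61.3%, with a median of 36%, and the 69 blastema non-pole cells held 2% to 43.3%, with a median of 20.7%. All but replicates 14, 40 and 42 of the 16 thus lay above every other non-pole cell. The ranges of the 37 remaining cells and the blastema cells overlapped, although the median of the 37 was higher (36% against 20.7%).

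**Figure D1:**
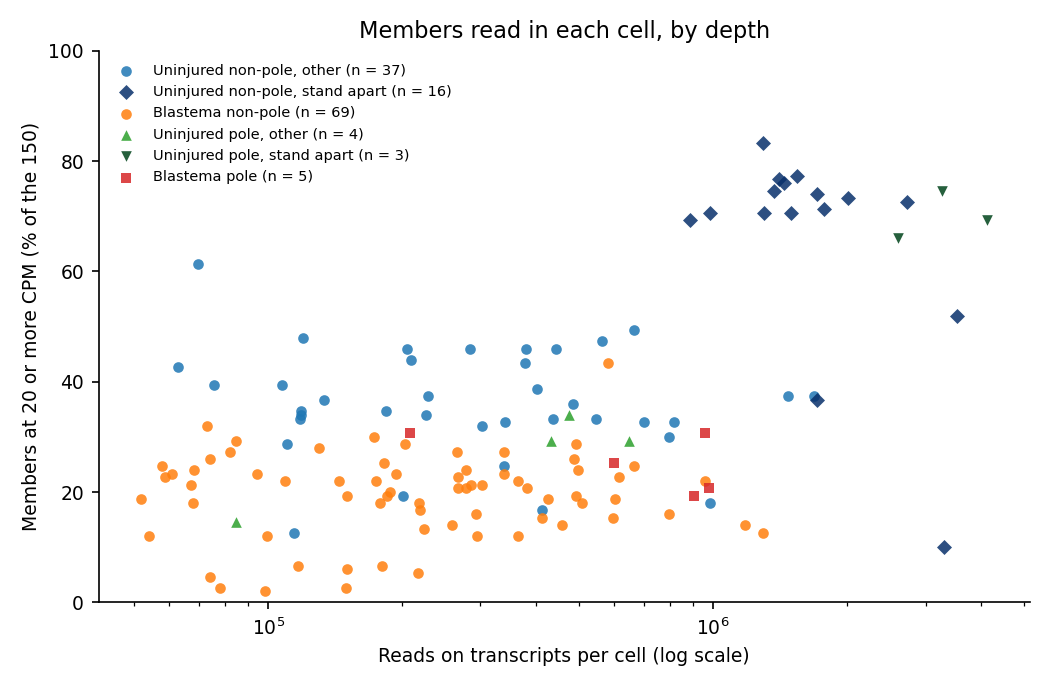
Percent of the 150 members at 20 or more CPM in each cell (vertical axis) against the reads on transcripts of that cell (horizontal axis, log scale), with 1 point per cell and colour and shape for group. The libraries that stand apart lie at 800000 reads or more and mostly near 72% of members. Other cells of the same depth, from both conditions, lie at 12.7% to 37.3%.

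The libraries that stand apart are deep by definition, so their values are set beside those of other deep cells. The 10 other cells with at least 800000 reads held 12.7% to 37.3% of members. They came from both conditions, and members were chosen for a low share in blastema non-pole cells. Among them, uninjured non-pole replicates 6 and 7 held 37.3% each and replicate 26 held 32.7%. Blastema non-pole replicates 8, 9 and 10 held 14%, 22% and 12.7%. When every cell was thinned at random to 50000 reads, the median number of members with a read was 108.5 in the 16 cells, 63 in the 37 and 42 in the blastema. The median number of all transcripts at 20 or more CPM was 2288 in the 16 cells, 2622 in the 37 and 2934 in the blastema.

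Most members were expressed in a larger share of the 16 cells than of the other 37 uninjured non-pole cells. The median share over members was 68.8% in the 16 cells, 37.8% in the 37 and 17.4% in the blastema. For 97 of 150 members the share of expressing cells was at least 20 points higher in the 16 cells than in the 37, which held for 3.41% of tested transcripts. It also held for 10.5% of the 4033 widely read transcripts, those expressed in as large a share of uninjured non-pole cells as the least frequent member (22.6%). For 8 members the share was at least 20 points lower, against 9.57% of tested transcripts. A library that stands apart held the highest uninjured non-pole CPM of 87 members, where this held for 36.6% of tested and 38.5% of widely read transcripts.

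**Figure D2:**
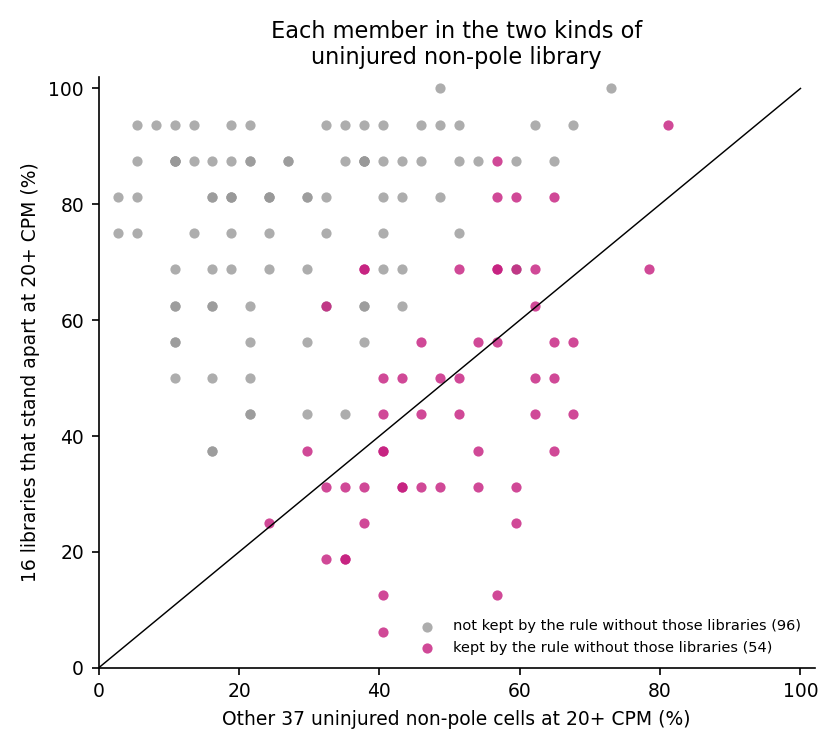
Share of cells at 20 or more CPM for each member in the 16 uninjured non-pole libraries that stand apart (vertical axis, percent) and in the other 37 uninjured non-pole cells (horizontal axis, percent), with the line of equal shares. The 54 members that the same rule picks without the 16 libraries lie around the line, and the 96 that it does not pick lie above it.

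The transcript dd_79097 showed this split most sharply. In the 16 cells it ranged from 0.91 to 23335 CPM with a median of 3638, and 15 of them were at 20 or more. In the 37 other uninjured non-pole cells its highest value was 118.05 CPM, its median 0, and 2 cells passed 20 CPM. In blastema non-pole cells the highest value was 60.4 CPM, and 3 of 69 cells passed. Its level in summed reads was 6692 CPM in the 16 cells (95% interval 6662 to 6722), 4.59 CPM in the 37 (3.56 to 5.81) and 1.72 CPM in the blastema (1.197 to 2.39). The fold between uninjured and blastema cells therefore came from the 16 cells, at a log2 fold of -10.66 with them and -1.04 without.

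Of the other members highest in summed level, dd_13483, dd_11111 and dd_3351 followed dd_79097 to a lesser degree, and dd_3 did not. The transcript dd_3, the highest of all members at 4730 CPM in uninjured non-pole cells, stood at 3503 CPM in the 16 cells. In the 37 it stood at 7086 CPM, and replicate 18 among them reached 206775 CPM. The transcript dd_13483 was at 20 or more CPM in 16 of 16, 27 of 37 and 41 of 69 cells, at 994, 74.4 and 59.7 CPM, with a log2 fold of -3.49 with and -0.31 without the 16. For dd_11111 the levels were 1163, 52.7 and 28.1 CPM. For dd_3351 they were 904.2, 213.6 and 136.4 CPM. For dd_13483, dd_11111 and dd_3351 the 37 other cells lay nearer to the blastema cells than to the 16. Rarer members could be almost absent elsewhere: dd_5235 was expressed in 15 of 16, 3 of 37 and 1 of 69 cells, dd_30666 in 13 of 16, 2 of 37 and 3 of 69, and dd_24583 in 14 of 16, 2 of 37 and 3 of 69. The member with the largest share difference, dd_15885, was at 20 or more CPM in 35 of 53 uninjured and 20 of 69 blastema cells. In summed reads it stood at 154 CPM (150 to 157) in uninjured and 39.7 CPM (36.98 to 42.5) in blastema cells, and without the 16 cells its log2 fold moved from -1.93 to -0.19.

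Without the libraries that stand apart a smaller set remained lower in the blastema. Of the 150 members, 67 were then at least 2-fold lower (23.3% of tested and 15.1% of widely read transcripts), 63 of them also with all cells. None was at least 2-fold higher (15.1% of tested and 6.99% of widely read transcripts). The median log2 fold was -0.89, against -0.05 over all tested transcripts. The direction of the share was mostly kept: all but 5 members still had a higher share in the 37 uninjured cells than in the blastema, where 46.1% of tested transcripts did. The 37 and 69 cells also entered the choice of members, so these counts follow in part from that choice. The same rule applied to the 37 and 69 cells picked 54 of the 150 members again.

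Several of these 54 were more frequent outside the 16 libraries. The transcript dd_8338 passed 20 CPM in 1 of 16, 15 of 37 and 2 of 69 cells. It ranged from 0 to 776 CPM over the 37 cells with a median of 0, and from 0 to 38.2 CPM over the blastema cells. Its level was 50.1 CPM (47.97 to 52.2) in all uninjured non-pole cells and 1.18 CPM (0.755 to 1.75) in the blastema, and its log2 fold was -4.55 with and -5.95 without the 16. The transcript dd_91 passed in 3 of 16, 12 of 37 and 1 of 69 cells, at 61.1 CPM in uninjured and 0.982 CPM in blastema cells. For dd_915 the numbers were 6 of 16, 15 of 37 and 5 of 69, and for dd_9052 they were 5 of 16, 16 of 37 and 6 of 69. In these 4 members, which include 2 singled out after their values were seen (dd_8338 and dd_91), the blastema share lay below both kinds of uninjured library.

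Of the 150 members, 2 carry a name from the study's annotation, and both had a lower log2 fold without the 16 libraries than with them. The first is dd_1230 (*SCGN*), matched to secretagogin, an EF-hand calcium-binding protein. It passed 20 CPM in 16 of 53 uninjured and 4 of 69 blastema non-pole cells, with medians of 0 in both and highest values of 2571 and 574 CPM. In summed reads it stood at 106.6 CPM (103.5 to 109.7) in uninjured and 10.5 CPM (9.10 to 11.96) in blastema cells, with a log2 fold of -3.23 with the 16 cells and -3.65 without. The second is dd_542 (*POR*), matched to P450 (cytochrome) oxidoreductase, which in vertebrates passes electrons to the microsomal cytochrome P450 enzymes. It passed in 26 of 53 uninjured and 17 of 69 blastema cells, at 107.9 CPM (104.9 to 111.1) and 71.7 CPM (68.1 to 75.5). Its log2 fold was -0.58 with the 16 cells and -1.68 without, and only 4 of the 16 expressed it.

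Reads of a member were seldom spread evenly over cells. In uninjured non-pole cells the single highest cell held 9.45% to 69.2% of a member's reads, with a median of 18.6%, and the median cell had 0 CPM for 33 members. In blastema non-pole cells the median was 21.8%, and the median cell had 0 CPM for all but 45 members. In 3 members 1 uninjured cell held at least 50% of the reads. These were dd_451 with 69.2% in replicate 7, dd_10593 with 51.4% in replicate 38 and dd_14132 with 50.6% in replicate 14. The last 2 replicates belong to the libraries that stand apart. The transcript dd_652 had 45.03% of its uninjured reads in replicate 18, and it passed 20 CPM in no blastema cell.

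**Figure D3:**
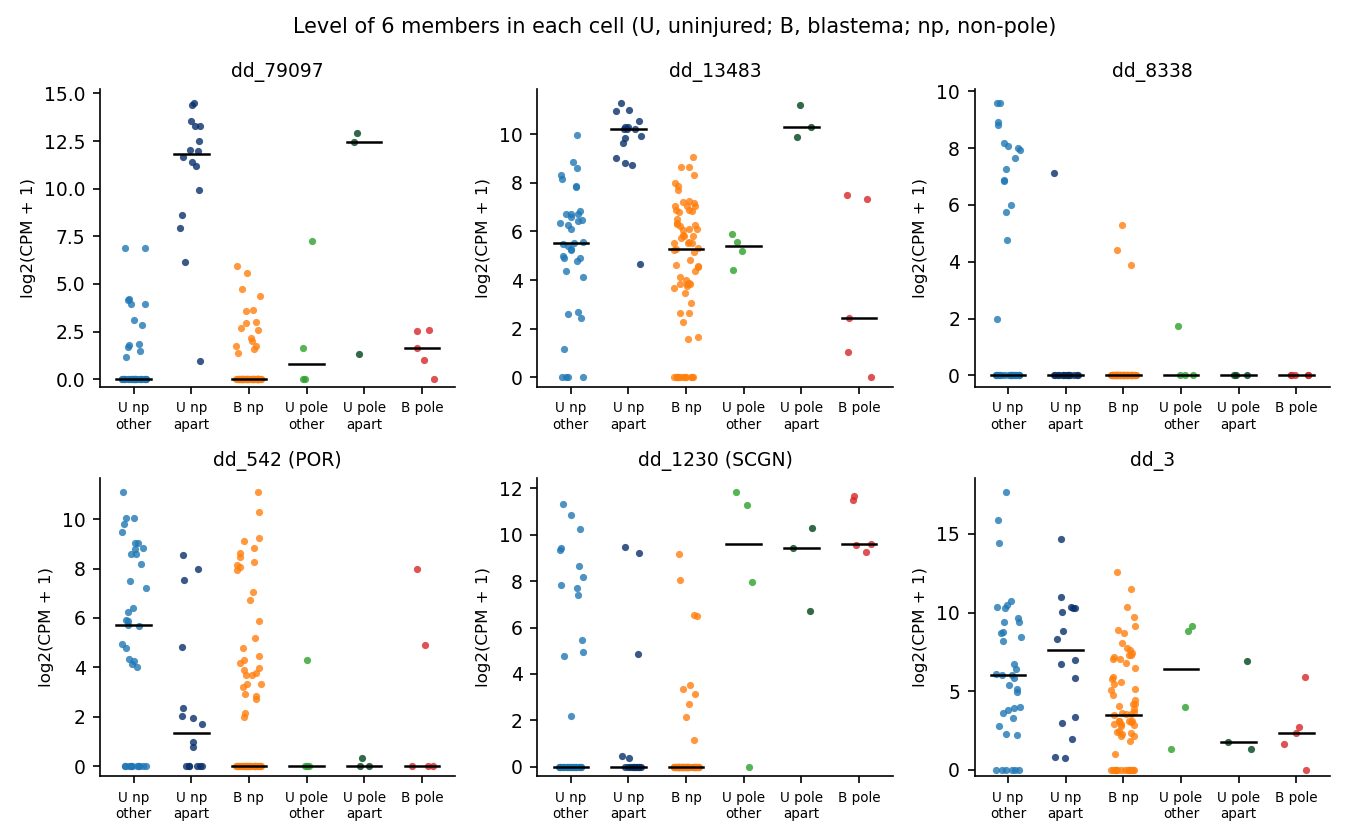
Level of 6 members in every cell, as log2(CPM + 1) on the vertical axis, with 1 point per cell, bars at the median, and columns for the uninjured non-pole (np) cells that stand apart and the other 37, the blastema non-pole cells, and the pole cells split in the same way. dd_79097 and dd_13483 are high in the columns that stand apart, and dd_1230 (*SCGN*) in the pole cells of both conditions. dd_8338 is high in a minority of the other uninjured non-pole cells and unread in the median cell of that column.

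Collagen-poor cells held some of the highest single values of the members. Among the 12 collagen-poor uninjured non-pole cells the summed CPM of all members ranged from 4195 to 223820, with a median of 21280, and it had a median of 11563 in the 41 collagen-rich ones. The highest value came almost wholly from dd_3, which reached 206775 CPM in replicate 18, 61598 CPM in replicate 59 and 21722 CPM in replicate 3. The same 3 cells held dd_652 at 9853, 4745 and 2600 CPM and dd_2917 at 510, 3336 and 1158 CPM. These 3 transcripts were thus highest together in collagen-poor cells. In the 26 collagen-rich uninjured cells outside the libraries that stand apart, all members together had a median of 9495 CPM.

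Counted member by member, fewer were higher than lower in collagen-poor cells. Of 150 members, 14 were at least 2-fold higher in collagen-poor than in collagen-rich uninjured non-pole cells (27.4% of tested and 21.1% of widely read transcripts) and 85 were at least 2-fold lower (33% and 33.3%). Without the libraries that stand apart, of which 1 (replicate 49) was collagen-poor, 27 were higher (26.9% of tested and 16.1% of widely read transcripts) and 35 lower (26.3% and 31.5%), with a median log2 fold of -0.14. Leaving out replicate 49 alone gave 8 higher. In reads the order was the opposite, since members took 3.29% of transcript reads in collagen-poor and 2.74% in collagen-rich uninjured cells. Without the libraries that stand apart these were 3.75% and 1.02%. Most of the member reads in collagen-poor cells were of dd_3 alone, mainly in replicate 18. It stood at 19702 CPM there, and at 27134 CPM without the libraries that stand apart, so this order does not describe the members at large. In the blastema, where 6 cells were collagen-poor, 20 members were higher (16% and 11.5%) and 70 lower (37.7% and 44.9%). With collagen-rich cells alone, all but 8 members were at least 2-fold lower in the blastema (27.6%), in the contrast that chose the members.

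**Figure D4:**
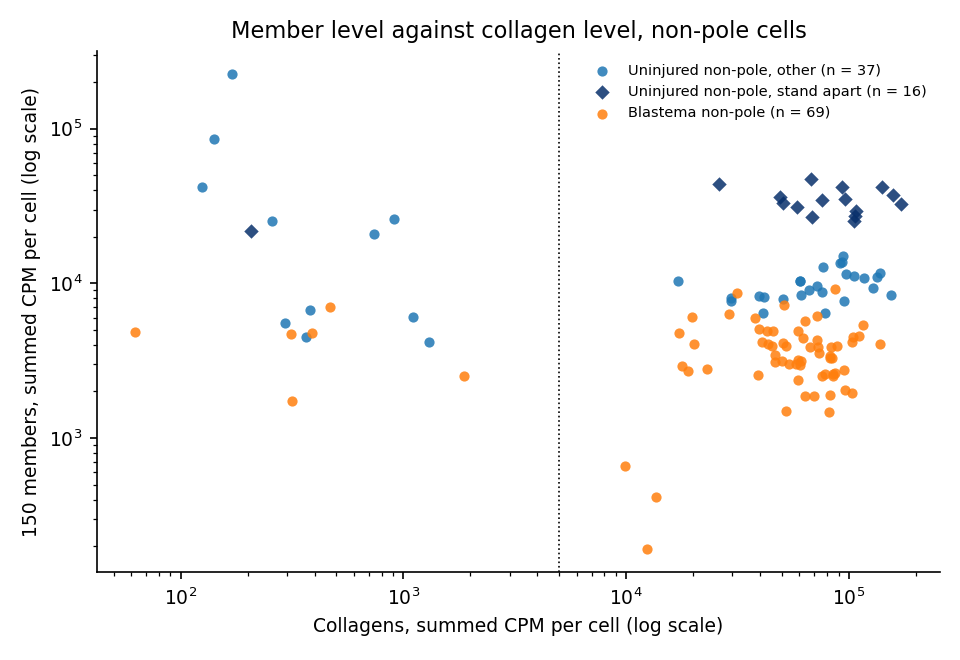
Summed CPM of the 150 members (vertical axis, log scale) against summed CPM of the collagens (horizontal axis, log scale) for each non-pole cell, with the 5000 CPM limit dotted. The highest member sums lie among collagen-poor uninjured cells, and 15 of the 16 libraries that stand apart form a group of collagen-rich cells above all other collagen-rich cells.

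For *POR* the levels were set beside a marker of another cell type. The transcript dd_542 (*POR*) was at 29.8 to 1071 CPM in all 12 collagen-poor uninjured cells. The marker of epidermal progenitors *agat-1* (dd_920) was at 1000 CPM or more in 8 uninjured non-pole cells, and in those *POR* was at 84.6 to 1071 CPM with a median of 492. In the 45 other uninjured non-pole cells its median was 4.06 CPM and 18 were at 20 or more. The blastema showed the same order, with a median of 554 CPM in 5 *agat-1* cells and 0 in the other 64, of which 12 were at 20 or more. The highest *POR* values nevertheless lay in cells under 1000 CPM of *agat-1*, at 2197.1 CPM in uninjured and 2174 CPM in blastema cells. The collagen-poor uninjured replicate 63 had *POR* at 1062 CPM with a sum of 0 over the epidermal list. The 8 and 5 cells held 44.8% and 47.1% of the *POR* reads of their groups. The transcript dd_7017 had 93.5% of its blastema reads in the same 5 cells and 25.4% of its uninjured reads in the 8. *vim* (dd_950), the other transcript of that list, had 0 reads in uninjured and 1 read in blastema non-pole cells. The part of these cells in the difference between conditions was not tested.

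The transcript dd_10835 had its highest values in 2 cells with high neuronal sums. It was at 9846 CPM in uninjured non-pole replicate 63 and 6412 CPM in replicate 12, the collagen-poor cells in which a fixed list of neuronal transcripts summed to 8673 and 6812 CPM. It was also at 2698 CPM in replicate 44, a collagen-rich library that stands apart with a neuronal sum of 624 CPM. High values of dd_10835 were therefore not limited to cells with a high neuronal sum.

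No member belonged to any of the 10 fixed marker lists. Over 14 collagen rows, 1 was at least 2-fold lower in blastema than uninjured non-pole cells and 0 higher, and of 12 contractile transcripts 0 were lower and 0 higher. Of 15 housekeeping transcripts, 1 was lower and 3 higher. Of 11 tested cilia transcripts 6 were lower and 2 higher, and of 17 neuronal transcripts 4 were lower and 3 higher. Of all tested transcripts 29% were lower and 19.9% higher. Without the 16 libraries 8 cilia transcripts were lower and 2 higher, and 4 neuronal ones were lower and 1 higher (23.3% and 15.1% of tested transcripts). The muscle lists thus did not drop with the members, with all cells included.

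The pole cells played no role in the choice of members. There the members were again lower in the blastema when all cells were used: all but 32 of the 150 (78.7%) were at least 2-fold lower, where 27.7% of tested and 31% of widely read transcripts were, and 16 were at least 2-fold higher, where 23.4% and 39.5% were. The median log2 fold of members was -2.87, against 0.00 over all tested transcripts. With groups at 0 reads set to a floor of 3 reads over the group, it was -3.09, with 1 member under that floor in both groups left out. Members took 2.79% of transcript reads in uninjured and 0.676% in blastema pole cells. The non-pole and pole contrasts share no cells, but both uninjured groups include libraries that stand apart.

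The difference in pole cells rested on 3 libraries. Uninjured pole replicates 5, 6 and 7, all of which stand apart, held 69.3%, 74.7% and 66% of the members at 20 or more CPM. Replicates 1 to 4 held 14.7%, 29.3%, 29.3% and 34%, and the 5 blastema pole cells held 30.7%, 30.7%, 20.7%, 19.3% and 25.3%. The 3 libraries thus lay above all other pole cells, while the other 4 uninjured pole cells overlapped with the blastema pole cells. Their member reads took 3.12% of transcript reads, against 0.801% in the other 4. Of the members, 82 were at 20 or more CPM in all 3, as were 2.98% of tested and 13.3% of widely read transcripts. Of these, 28 were so in none of the other 4 (0.538% and 1.96%). Between the 3 and the 4 cells, 100 members were at least 2-fold higher in the 3 (24.3% of tested transcripts) and 25 were lower (22.5%).

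Without those 3 libraries, 53 members were at least 2-fold lower in blastema than uninjured pole cells (18.3% of tested and 27.2% of widely read transcripts) and 38 were higher (23.8% and 36%). The median log2 fold was -0.18, or -0.23 with the floor of 3 reads and 9 members left out. Of the members lower with all pole cells, 45 remained lower and 25 turned at least 2-fold higher. Against the 3 libraries alone, all but 34 were lower (23% of tested and 28% of widely read transcripts), and 23 were at least 2-fold higher (26.7% and 46.8%). Of the 54 members that the rule picks without the non-pole libraries that stand apart, 26 were lower and 15 higher with all pole cells. The shares over all transcripts were 27.7% of tested and 31% of widely read ones lower, and 23.4% and 39.5% higher. The median log2 fold of these 54 was -0.84. Without the 3 libraries 19 of them were lower and 16 higher, with a median of -0.13. Of the other 96, 92 were lower and 1 higher with all pole cells, and 34 lower and 22 higher without the 3.

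**Figure D5:**
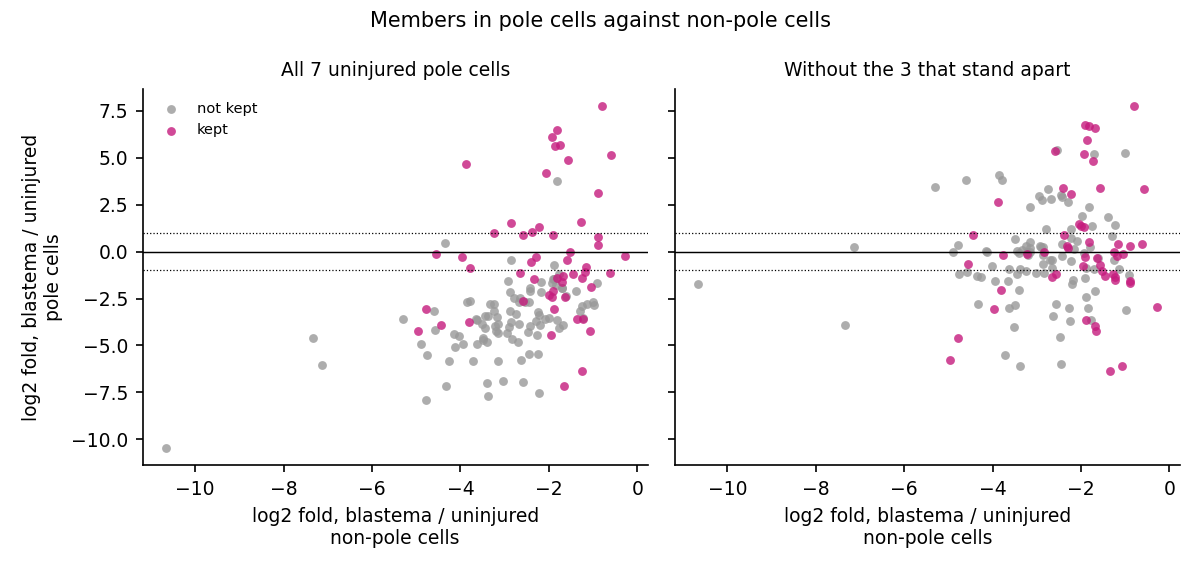
Log2 fold of blastema over uninjured cells for each member in pole cells (vertical axis) against non-pole cells (horizontal axis, all cells), with all 7 uninjured pole cells (left) and without the 3 that stand apart (right). Kept members are the 54 that the rule picks without the non-pole libraries that stand apart, and dotted lines mark a log2 fold of 1 in each direction. The points centre near -2.87 at left and near -0.18 at right.

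The members with the lowest pole folds were read mainly in replicates 5 to 7. The transcript dd_79097 was at 153.3 (13 reads), 0, 0 and 2.11 CPM in uninjured pole replicates 1 to 4, at 5624, 7743 and 1.54 CPM in replicates 5 to 7, and at 4.81, 2.09, 1.02, 0 and 5.01 CPM in the blastema. It was therefore high in 2 of the 3 libraries, and its log2 fold was -10.48 with them and -1.71 without. The transcript dd_30666 was at 0 CPM in replicates 1 to 4 and at 673, 85.3 and 213 CPM in replicates 5 to 7. In the blastema 1 cell had 4.81 CPM and 4 cells 0. The transcript dd_22441 was at 803, 459 and 353 CPM in replicates 5 to 7 and at 11.8, 0, 0 and 0 CPM in replicates 1 to 4. These 2 transcripts were thus barely read in the other uninjured pole cells.

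For dd_20316 and dd_1914 the remaining uninjured pole cells contributed too. The transcript dd_20316 was at 0, 254, 4.62 and 10.5 CPM in replicates 1 to 4, at 499, 355.5 and 153.4 CPM in replicates 5 to 7 and at 9.62 CPM in 1 blastema pole cell, with 0 in the other 4. Its log2 fold was -7.72 with and -6.09 without the 3 libraries. The transcript dd_1914 had 502 CPM in replicate 6, 67.01 CPM in replicate 3 and 0 in the other 5, and it had 0 reads in blastema pole cells. Its level was at least 174-fold lower there, against a floor of 3 reads over the group, yet 1 cell held 98.3% of the uninjured reads.

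A few members went the other way in pole cells. Of the 140 lower in the non-pole blastema, 13 were at least 2-fold higher in blastema than uninjured pole cells. That was 9.29%, against 12% of tested and 18.7% of widely read transcripts lower in the non-pole blastema, so members going the other way were not more frequent than among transcripts at large. The difference between both effects was not tested. The transcript dd_2538 had 0 reads in all 7 uninjured pole cells and was at 0, 268, 327, 227 and 5.01 CPM in the blastema, at least 836-fold higher in summed reads. In non-pole cells it was 0.80 lower on the log2 scale, so it is not among the 13. The transcript dd_3416 was under 1 CPM in every uninjured pole cell and at 346 and 41.9 CPM in 2 blastema pole cells, with 0 in the other 3. The transcript dd_1099 had 4.21 CPM in 1 uninjured pole cell, 0 in the other 6, and 62.5, 278, 0, 16.6 and 0 CPM in the blastema. The transcripts dd_1634 and dd_3498 were each at 20 or more CPM in 2 of 5 blastema and 0 of 7 uninjured pole cells. Every one of these 5 rested on at most 3 blastema cells at 20 or more CPM, and all 5 kept this direction without the 3 libraries.

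The named members differed from most others in the pole. *SCGN* (dd_1230) was at 0, 3678, 2512, 246, 1262, 698.7 and 104.95 CPM in the uninjured pole cells and at 611, 2890, 3220, 774 and 759 CPM in the blastema pole cells. Its level was 976 CPM (958 to 994) in uninjured and 1973 CPM (1927 to 2019) in blastema pole cells. The cells of both groups overlapped, and the log2 fold went from 1.02 to -0.15 without the 3 libraries. It was thus high in pole cells of both conditions, while in non-pole cells it was read in a minority, most of them uninjured. *POR* (dd_542) was at 18.96 CPM (9 reads) in uninjured pole replicate 4, 0.242 CPM in replicate 5 and 0 in the other 5. In the blastema pole it was at 28.8, 0, 0, 254 and 0 CPM, so that 2 of 5 cells carried all its reads. The transcript dd_915 was similar, at 106.1 and 6.32 CPM in uninjured replicates 1 and 4, 0 in the other 5, and 35.8 and 167 CPM in 2 blastema pole cells. The 106.1 CPM came from 9 reads in replicate 1, the collagen-poor pole cell.

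Between cell classes of 1 condition about as many members were lower as higher. In uninjured animals 32 members were at least 2-fold lower and 32 at least 2-fold higher in pole than non-pole cells, against 48.1% and 18.9% of tested transcripts. Their median log2 fold was 0.35, and that of all tested transcripts -0.90. The 54 members picked without the libraries that stand apart had 25 lower and 6 higher, and the other 96 had 7 lower and 26 higher. In the blastema 34 were lower and 33 higher, against 37.8% and 13.2%, with medians of -0.06 and -0.43. In pole cells, too, single cells carried much of a member's reads. The highest cell held a median of 54.3% of a member's reads in uninjured and 66.7% in blastema pole cells, and 49 members reached 20 CPM in none of the 5 blastema pole cells. With 5 cells, a count of 0 allows a share of up to 52.2% (exact interval).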

How the data were processed

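Raw read counts per contig (26566 contigs of the dd_Smed_v4 assembly, 152 single-cell libraries) were deposited by the authors. Bowtie, Trimmomatic 0.32 and CASAVA 1.7.0 are named in the submitters' processing notes, and how reads were counted is not given in these sources. A second deposited table holds the authors' SCDE comparison of pole with non-pole cells (log2 fold estimates and scores), of which only the contig names were used. Its 26560 contigs hold 36.4% of all counted reads. The 6 further rows stayed out, with 43.7% of reads on dd_4 and dd_7 and 19.9% on a mitochondrial row.

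All 9730 pairs of libraries with enough reads were compared by chi-square of counts. The 6 pairs under 10 per degree of freedom, all uninjured non-pole (1.28 to 7.40, next pair 22.2, Pearson r 0.937 to 0.971 of log2 values), were counted as 1 cell each. Sampling noise alone gives a value near 1. Replicates 54 and 55, at 7.40, differed by clearly more than that, and the other pairs were at 1.28 to 2.01. Of 146 cells, 12 had under 50000 reads on transcripts, and 134 were kept (51801 to 4132918 reads). The study's text counts fewer cells than the libraries used here. Cells were sorted singly and no doublet filter was applied.

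Groups came from the labels. Levels are CPM of the summed reads of a group, and folds are log2 ratios with a pseudocount of 1 CPM. With 1 sample a group no test was run. Sums have exact Poisson and shares Clopper-Pearson 95% intervals, which cover counting error only because PCR reads without molecular identifiers are not independent molecules. CPM are not corrected for transcript length. Contigs with similar sequence may share reads.

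The members and lists were chosen with earlier results of these data known. Named were the 15 members with the largest share difference, those the study names, the 5 highest in level, the 5 lowest and 5 highest in pole fold, the 5 most held by 1 cell and the 5 highest in collagen-poor cells; dd_8338, dd_91, dd_24583, dd_7017 and dd_10835 were added after their values were seen. The libraries that stand apart were defined after seeing the data. The calculation of folds was checked on simulated counts with known folds. Python 3.11.15, numpy 2.4.6, pandas 2.3.3, scipy 1.17.1, matplotlib 3.10.9, R 4.3.3 and edgeR 4.0.16 (TMM scaling of group sums as an alternative) were used. Members' sequences were not used here.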

Additional observations from a re-analysis of the deposited data

Results flagged for a closer look

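Of 71 groups of pole cells compared over 38 members, 27 had 1 cell far above the others, by a gap set against the range of the group. For normally spread values about 1 in 20 groups would pass by chance, but many of these members were at or near 0 CPM in most pole cells, so that 1 cell with reads is enough. In uninjured pole cells the single high value was under 20 CPM for dd_1099 (4.21 CPM in replicate 4), dd_1634 (4.21 CPM in replicate 4), dd_3498 (0.726 CPM in replicate 5), dd_8338 (2.31 CPM in replicate 3) and *POR* (dd_542, 18.96 CPM in replicate 4). Replicate 3 was highest for dd_12148 at 476 CPM, dd_14132 at 425 CPM and dd_91 at 208 CPM. Replicate 6 was highest for dd_1914 at 502 CPM and dd_9052 at 514.1 CPM. The others were dd_30666 at 673 CPM in replicate 5, dd_451 at 236 CPM in replicate 2 and dd_915 at 106.1 CPM in replicate 1.

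In blastema pole cells replicate 1 was highest for dd_20316 at 9.62 CPM, dd_22441 at 14.4 CPM, dd_3 at 57.7 CPM and dd_30666 at 4.81 CPM. Replicate 2 was highest for dd_1099 at 278.1 CPM, dd_12065 at 88.9 CPM, dd_26666 at 63.8 CPM, dd_3498 at 211 CPM and dd_451 at 47.05 CPM. Replicate 3 was highest for dd_13387 at 76.7 CPM, dd_17728 at 20.5 CPM and dd_3416 at 346 CPM, and replicate 4 for *POR* at 254 CPM and dd_915 at 167 CPM.

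The effect differed between cell classes for 13 members, which were at least 2-fold lower in blastema than uninjured non-pole cells and at least 2-fold higher in blastema than uninjured pole cells. They were dd_12148, dd_915, dd_7928, dd_2822, dd_1634, dd_3416, dd_1954, dd_1099, dd_1230 (*SCGN*), dd_3498, dd_1969, dd_3244 and dd_7187. This difference was not tested. The 13 made up 9.29% of the 140 members lower in non-pole cells. Among all transcripts lower there, 12% of tested and 18.7% of widely read ones were higher in the pole, so the members were not more frequent. Without the uninjured pole libraries that stand apart, dd_12148 (log2 fold -0.04), dd_1954 (0.86), dd_1230 (-0.15) and dd_1969 (-1.21) were no longer 2-fold higher.

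The row dd_7, which is outside the transcripts used, held 31.2% of all counted reads in the median blastema non-pole cell and 18.8% in the median uninjured non-pole cell. In the 37 uninjured non-pole cells that do not stand apart the median was 31.8%.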

How the results depend on the processing

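The libraries that stand apart moved every summary of the members. Without them the rule picked 54 of the 150 members again, 67 (not 140) were at least 2-fold lower in blastema non-pole cells with a median log2 fold of -0.89 (not -2.43), 53 (with all cells, 78.7% of the 150) were lower in blastema pole cells with a median of -0.18 (not -2.87), and 27 (not 14) were higher in collagen-poor cells. Without collagen-poor cells as well, 47 were picked, 64 were lower and the median was -0.78. Both alternatives were chosen after seeing the data. The member list also moved with the threshold: 87 were picked again with cells thinned to 50000 reads, 91 at 10 CPM and 86 at 50 CPM, and no alternative among the other 5 moved it by over 1.5 times. The pole median was -2.08 after thinning and -2.19 from means of single-cell CPM. Leaving out pole cells in turn moved the number of members lower by less than 1.5 times and gave medians of -3.16 to -2.62. Leaving out collagen-poor cells in turn gave 8 to 16 members higher, the lowest without replicate 49. No median changed sign, but single members did: 25 that were lower with all pole cells were at least 2-fold higher without the libraries that stand apart. The causes were not tested, and 5 blastema and 4 remaining uninjured pole cells limit every pole value. No paired analysis was possible because no test was run and the replicate numbers follow accession order.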

Other observations

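Of 12 contractile transcripts, 0 were at least 2-fold lower and 4 higher in blastema than uninjured pole cells, with a median log2 fold of 0.59, and without the uninjured pole libraries that stand apart 2 were lower and 7 higher, with a median of 1.34. Of 17 neuronal transcripts, 3 were lower and 10 higher, both with those libraries (median 1.41) and without (1.68). In the background of all tested transcripts 27.7% were lower and 23.4% higher with all pole cells.

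Of 9 tested transcripts listed as under nr4A control, all 9 were at least 2-fold lower in collagen-poor than collagen-rich uninjured non-pole cells, with a median log2 fold of -7.00, where 33% of tested transcripts were. Among them, 1 (dd_9565, *col21a1*) is also in the collagen list that defines these cells.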
